A study of Mus musculus with 2 samples.

Results

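Translation initiation factors (eIFs) bring the ribosome to the start codon of an mRNA, and elongation factors (eEFs) carry it along the coding sequence. The genes described here are all protein-coding genes on autosomes whose mouse symbol starts with Eif1 to Eif6 or with Eef, together 65 of the 43346 genes with an Ensembl identifier in the deposited tables. The prefixes matched 75 genes, of which 7 were not protein-coding and 3 lay on a sex chromosome. Among the latter was Eif2s3x, which codes for the gamma subunit of eIF2 and is not described further. The rule uses symbols and no measured values, though it was set with earlier results of these data known. The material was liver of 1 female C57BL/6J mouse aged 10 weeks. PolyA RNA of this animal was sequenced in 2 libraries. The labels call them technical replicates 1 and 2 of the same biological replicate, and they are named library 1 and library 2 in what follows. Library 2 carries a date in 2015 and library 1 carries none, and dates and handling cannot be told apart from the library itself. The labels give no treatment, no altered allele and no second animal, so the values answer how abundant each factor's mRNA was and how far the libraries differed. Every mean ± SD below is over these 2 libraries and measures technical spread.

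The deposited expected counts summed to 23309905 in library 1 and 19525500 in library 2. The 7 hepatocyte markers examined were all at 1 TPM (the deposited, length-normalised abundance unit) or more and had a joint level of 38668 TPM in library 1 and 93453 TPM in library 2. All 6 muscle markers were under 1 TPM in both libraries, with Myh6 and Myh7 at 0, as were 4 of 5 neuronal markers (summed level 5.45 and 5.88 TPM, Stmn2 at 0) and 3 of 4 male germ cell markers (0.49 and 1.29 TPM). The 5 blood markers, globin genes and Alas2, summed to 137.7 TPM in library 1 and 2063 TPM in library 2, with none at 0. In bulk tissue, fewer cells of a type and less RNA per cell cannot be told apart, and the part of blood RNA in the differences below was not tested. Nuclear protein-coding genes made up 37.6% of the TPM total of library 1, and 73.7% of that of library 2.

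Initiation in the cytosol starts when eIF2, loaded with GTP and initiator tRNA, joins the small ribosomal subunit together with eIF1, eIF1A, eIF3 and eIF5. The eIF4F complex (the cap-binding protein eIF4E, the scaffold eIF4G and the helicase eIF4A) brings the mRNA. eIF2B reloads eIF2 with GTP and is blocked when stress-activated kinases phosphorylate eIF2, and the 4E-binding proteins hold eIF4E back until mTOR phosphorylates them. During elongation eEF1A delivers aminoacyl-tRNA, eEF1B recharges eEF1A with GTP, and eEF2 moves the ribosome by a codon. In many cells the mRNAs of eEF1A, eEF2 and other factors belong to a class that mTOR controls at the level of translation. Hepatocytes make most plasma proteins and so carry heavy translation.

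Several factors exist as paralogs whose proteins are nearly alike while their coding sequences differ at many synonymous bases. Such bases can help short reads tell the paralogs apart. Only coding sequences were compared here, and not the other parts of the mRNAs. The eIF4A helicase genes Eif4a1 and Eif4a2 shared 90.6% of 406 aligned residues and 77.9% of the coding bases. A stretch of 60 bases that codes for the same 20 residues in both differed at 17 bases, shown in capitals (coding exons, GENCODE M21, GRCm38, chr11:69667712-69667771 on the minus strand and chr16:23111820-23111879 on the plus strand, each read 5′ to 3′ on the mRNA strand).
Eif4a1: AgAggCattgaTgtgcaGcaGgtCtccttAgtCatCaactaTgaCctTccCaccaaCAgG
Eif4a2: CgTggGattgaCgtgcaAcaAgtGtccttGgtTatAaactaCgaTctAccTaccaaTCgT
The eEF1A genes Eef1a1 and Eef1a2 shared 92.4% of 462 aligned residues and 80.1% of the coding bases. Their stretch with the most differences among those coding for the same 20 residues differed at 15 bases (chr9:78480349-78480408 and chr2:181153759-181153818, both minus strand).
Eef1a1: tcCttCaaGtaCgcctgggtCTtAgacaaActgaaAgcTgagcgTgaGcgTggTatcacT
Eef1a2: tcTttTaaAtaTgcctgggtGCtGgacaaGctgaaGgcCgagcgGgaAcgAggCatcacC

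The factors also differ in base composition, and the library difference described below followed it. As examples, 60 bases of coding exon nearest the middle of the coding sequence are printed for 3 factors that were higher in library 2 and 2 that were lower. Capitals mark G or C at the third position of a codon. Eef2 (chr10:81179989-81180048, plus strand) and Eif3k (chr7:28977201-28977260, minus strand) each have G or C there in 18 of 20 codons. Eif3e (chr15:43265524-43265583, minus strand) has 7 of 20 and Eif2s1 (chr12:78879952-78880011, plus strand) has 5 of 20. Eif4h (chr5:134625373-134625432, minus strand) is shown as an exception by its window, with 4 of 20 although it was higher. Its whole coding sequence was not low, with 55% G or C beside a median of 55.1% in factors called higher. At the third codon positions of that sequence it had 51.4%, the lowest of those factors. Over all factors with such a window the number was 4 to 18 (median 13) in those called higher and 5 to 13 (median 7) in those called lower.
Eef2: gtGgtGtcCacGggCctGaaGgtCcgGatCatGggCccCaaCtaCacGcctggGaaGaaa
Eif3k: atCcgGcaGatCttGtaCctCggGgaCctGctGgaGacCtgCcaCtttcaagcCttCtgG
Eif3e: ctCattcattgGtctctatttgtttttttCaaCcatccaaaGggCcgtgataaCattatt
Eif2s1: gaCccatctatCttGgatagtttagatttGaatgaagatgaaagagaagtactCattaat
Eif4h: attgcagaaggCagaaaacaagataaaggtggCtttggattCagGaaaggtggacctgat

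In liver 58 of the 65 factor genes were at 1 TPM or more in both libraries, and 4 were under 1 TPM in both. Their joint part of the TPM total was 0.395% for library 1 and 0.801% for library 2. Measured against the TPM of nuclear protein-coding genes alone the share was 1.05% and 1.09% (1.07% ± 0.0249, SD, n = 2). On that second scale, 12 of the 62 genes above 0 in both libraries were within 1.5 times of each other in the libraries, and 12 differed by more than 4 times. In TPM as deposited the numbers were 13 and 20. The order of the 65 genes by TPM had a Spearman rho of 0.735 between the libraries, which share the animal but differ in depth.

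**Figure D1:**
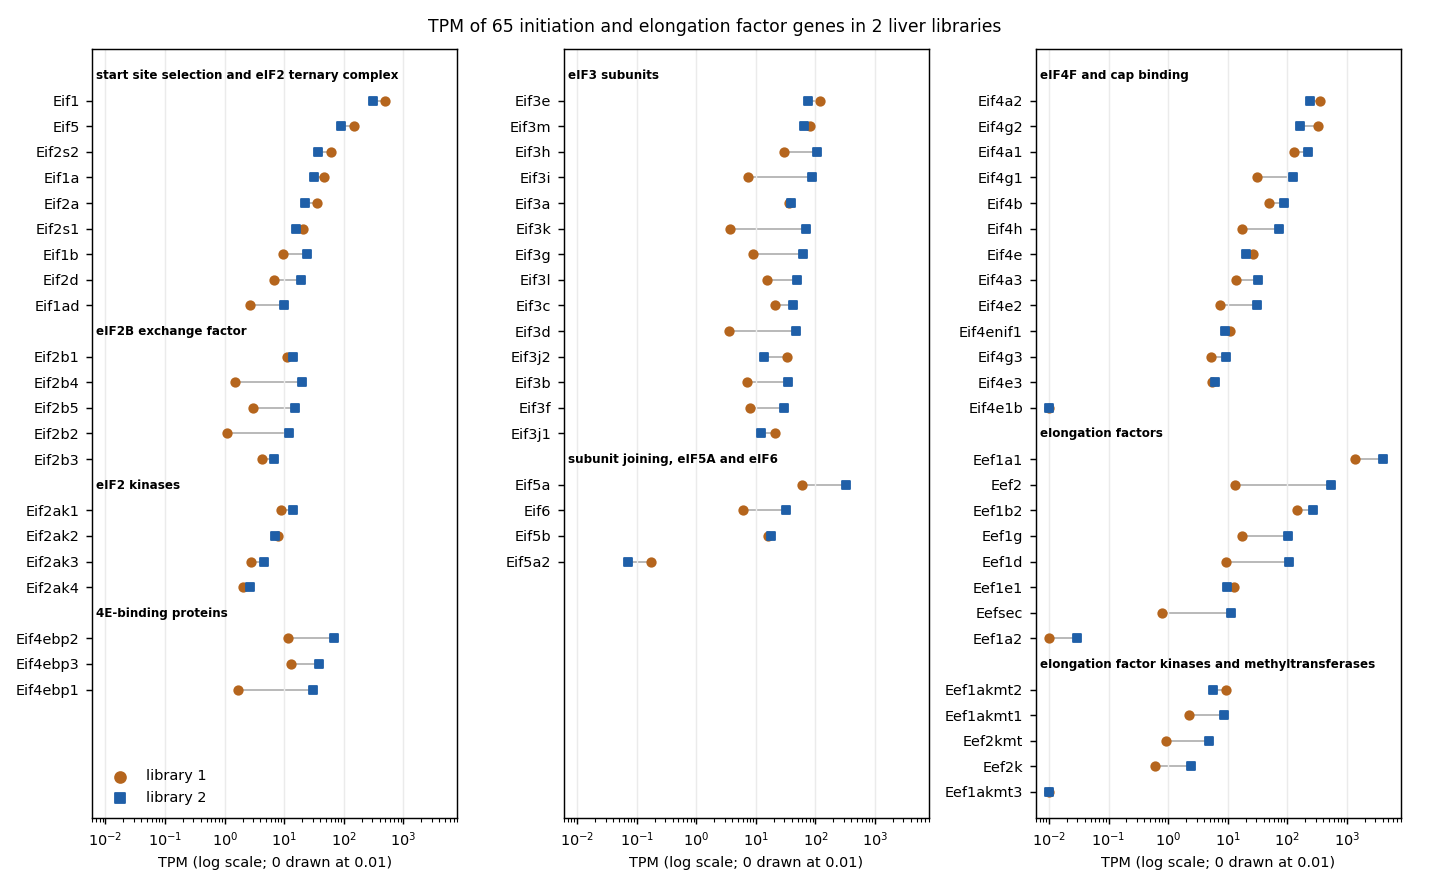
TPM of each of the 65 genes on a log axis, with library 1 as brown circles and library 2 as blue squares, grouped by role and sorted by mean TPM. Genes listed at 0 are drawn at 0.01. Eef1a1 stands above every other factor in both libraries, and the distance between the libraries ranges from almost none (Eif3a, Eif5b) to over 40 times (Eef2).

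For the comparison of the libraries a gene was called when an exact binomial test of its scaled counts gave an adjusted p under 0.05 (Benjamini-Hochberg over all genes tested) and its log2 fold was 1 or more in either direction. Such a test sets the reads of one library against those of the other and says nothing of conditions. Of 62 factor genes with at least 20 counts, 39 were called (62.9%), against 56.5% of all 12728 genes tested. In library 2, 23 were higher (37.1%, against 32.7% of all genes) and 16 were lower (25.8%, against 23.8%). Their median log2 fold was 0.48, and that of all genes tested was 0.04. With counts scaled by their total instead of by TMM, the split was 31 higher and 5 lower of 62, beside 41.9% higher and 7.49% lower over all genes, and the median of all genes moved to 0.62. The 3 genes not tested were Eef1a2, Eif4e1b and Eef1akmt3. The factors thus parted between the libraries about as often as genes in general did. The counts by role below stand beside the shares over all genes given here.

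Among the elongation factors, Eef1a1 was the most abundant factor mRNA in each library (ENSMUSG00000037742.10, chr9:78478449-78489151, minus strand, GRCm38). It was at 1378 TPM in library 1 and 4004 TPM in library 2 (2691 ± 1857, SD, n = 2), which was 34.9% and 49.97% of the TPM of all 65 genes. Its log2 fold in scaled counts was 0.54 (95% counting interval 0.53 to 0.56), below the size set for a call. Its paralog Eef1a2, the form known from muscle and neurons, had 0 counts in library 1 and 1 count in library 2. A count of 0 allows up to 3 counts, or 0.0692 TPM, in library 1, so eEF1A mRNA of this liver came from Eef1a1 as far as the depth can show.

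Eef2, the ribosome translocase, had the largest difference of all 62 factors tested (ENSMUSG00000034994.9, chr10:81176631-81182498, plus strand). It was at 13.2 TPM in library 1 and 552.8 TPM in library 2, from 880 and 24826 counts. Its rank among the 65 genes was 28 in library 1 and 2 in library 2. The log2 fold was 4.49 (4.4 to 4.59). Eef1a1 exceeded Eef2 by 104 times in TPM in library 1 and by 7.24 times in library 2.

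The eEF1B exchange factor has a subunit each from Eef1b2, Eef1d and Eef1g. Eef1b2 was at 148.0 and 275.8 TPM and was not called (log2 fold 0.23, 0.14 to 0.32). Eef1d was at 9.29 TPM in library 1 and 107.3 TPM in library 2 (log2 fold 2.81, 2.55 to 3.09). Eef1g was at 17.3 and 101.6 TPM (log2 fold 1.74, 1.61 to 1.87). Eef1b2 therefore stood 15.9 times above Eef1d in library 1 and 2.57 times above it in library 2. Eefsec, which delivers selenocysteine-tRNA at recoded UGA codons, was at 0.79 TPM in library 1 and 11.6 TPM in library 2 (log2 fold 2.97, 2.54 to 3.46). Eef1e1, a part of the multi-tRNA synthetase complex in spite of its name, was at 12.7 and 9.75 TPM and was called lower (log2 fold -1.27, -1.59 to -0.96), a call lost with total-count scaling (-0.69).

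The modifying enzymes were at low levels. Eef2k, the kinase that inactivates eEF2, was at 0.60 and 2.44 TPM from 64 and 148 counts (log2 fold 0.88, 0.45 to 1.33, not called). The lysine methyltransferase genes Eef2kmt and Eef1akmt1 were called higher, from 0.92 to 4.81 TPM and from 2.28 to 8.69 TPM. The log2 fold of Eef1akmt1 was 1.02, just past the size set for a call, and the call was lost with DESeq2 size factors and with a prior count of 2. Eef1akmt2 was called lower, at 9.34 TPM in library 1 and 5.67 TPM in library 2. Eef1akmt3 had 0 counts in both libraries, which allows up to 0.0519 TPM in library 1.

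The list named start site selection and eIF2 ternary complex holds 9 genes, and a place in it does not make a gene's product a part of that complex. Of these 9 genes, 5 were lower in library 2, 1 was higher and 3 were not called, with a median log2 fold of -1.23. With total-count scaling 1 (Eif5) was lower, 2 were higher and the median was -0.65. Eif1, the gatekeeper of start codon choice, was the most abundant at 495.4 TPM in library 1 and 315.4 TPM in library 2. Its counts were nearly equal at 4380 and 4175 (log2 fold -0.39, not called), while the effective length assigned to it was 388 bases in library 1 and 858 bases in library 2. Its paralog Eif1b was at 9.74 and 24.2 TPM (log2 fold 0.41, not called), 50.9 and 13.1 times below Eif1.

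Eif5, the GTPase activator of eIF2, was at 150.2 TPM in library 1 and 91.6 TPM in library 2 (log2 fold -1.61, -1.66 to -1.56). Both eIF2 subunits in the set were lower as well. Eif2s2, the beta subunit, was at 61.3 and 36.8 TPM (log2 fold -1.53, -1.63 to -1.44), and Eif2s1, the alpha subunit that the stress kinases phosphorylate, was at 20.3 and 16.1 TPM (log2 fold -1.23, -1.35 to -1.10). Eif1a, which works with eIF1 in scanning, was at 47.2 and 31.6 TPM (log2 fold -1.40). Eif2a, an alternative carrier of initiator tRNA that is not a subunit of eIF2, was at 35.5 and 22.5 TPM (log2 fold -1.30). The remaining genes of the list were Eif2d, at 6.65 and 19.1 TPM and not called, and Eif1ad, at 2.67 and 10.03 TPM and called higher (log2 fold 1.02, and 0.99 with no call under DESeq2 size factors).

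The 5 subunits of eIF2B were at 1.08 to 10.98 TPM in library 1 and 6.66 to 20.01 TPM in library 2. Of these, 3 were called higher. Eif2b4 went from 1.47 to 20.01 TPM (log2 fold 2.98, 2.58 to 3.43), Eif2b2 from 1.08 to 11.8 TPM (2.34, 1.84 to 2.91) and Eif2b5, the catalytic subunit, from 3.01 to 15.2 TPM (1.45, 1.22 to 1.68). Eif2b1 (10.98 and 14.3 TPM) and Eif2b3 (4.19 and 6.66 TPM) were not called.

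All 4 eIF2 kinases were detected. Eif2ak1, the heme-regulated kinase, was highest at 8.88 and 13.98 TPM (11.4 ± 3.61, SD, n = 2). Eif2ak2, the kinase activated by double-stranded RNA, was at 7.83 and 7.14 TPM. It was the called one, with a log2 fold of -1.21 (-1.39 to -1.02) in TMM-scaled counts, and with total-count scaling no kinase was called. Eif2ak3, the kinase of the endoplasmic reticulum, was at 2.79 and 4.65 TPM. Eif2ak4, the sensor of amino acid shortage, was at 2.05 and 2.68 TPM. Neither was called, and the intervals of both log2 folds included 0 with TMM scaling (-0.42 to 0.06 for Eif2ak3 and -0.21 to 0.42 for Eif2ak4). With total-count scaling the folds were 0.40 and 0.68, so the scaling decides where they lie.

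The 14 genes for eIF3, the largest initiation factor and the platform for the others, held 9.97% of the factors' TPM in library 1 and 9.09% in library 2. In library 2, 6 were higher, 3 were lower and 5 were not called, and with total-count scaling 8 were higher and 2 (Eif3j1 and Eif3j2) were lower. Eif3k (ENSMUSG00000053565.9, chr7:28971372-28981864, minus strand) had the largest difference, at 3.64 TPM in library 1 and 69.3 TPM in library 2 (log2 fold 3.34, 2.93 to 3.80, adjusted p = 1.30e-101 in the exact binomial test). Eif3d, which can itself bind caps, was at 3.56 and 47.2 TPM, and Eif3i was at 7.50 and 86.5 TPM. Eif3e was opposite to these, at 118.0 TPM in library 1 and 74.3 TPM in library 2 (log2 fold -1.56, -1.64 to -1.47). Eif3h (30.1 and 105.8 TPM), Eif3m (81.7 and 63.0 TPM) and Eif3a, the scaffold subunit (35.3 and 38.6 TPM), were not called. Of the others, Eif3b, Eif3f and Eif3g were called higher, from 6.97 to 9.05 TPM in library 1 to between 29.3 and 61.8 TPM in library 2, and Eif3c and Eif3l were not called.

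The subunits of a complex are often made in proportion as proteins, and the spread of their mRNAs within each library was described. Without the loosely bound j subunit, the 12 genes of eIF3 spanned 33.2 times in TPM in library 1 (3.56 to 118.0 TPM) and 3.61 times in library 2 (29.3 to 105.8 TPM). The SD of their log2(TPM + 0.1) was 1.63 in library 1 and 0.56 in library 2. For eIF2B the same SD was 1.27 and 0.59, and for eEF1B 2.09 and 0.81. In all 3 complexes the mRNA levels of the subunits lay closer together in library 2. This was not particular to complexes. The same SD was 1.62 and 0.58 for the 4E-binding proteins and 2.31 and 1.49 for the start site selection list. It was larger in library 2 for the elongation factors, their modifying enzymes, the subunit joining list and the mitochondrial translation factors. The first of these lists holds Eef1a2 (0 and 0.03 TPM), the second Eef1akmt3 (0 TPM in both) and the third Eif5a2 (0.17 and 0.07 TPM). The pseudocount sets the log level of a gene at 0, so these SDs depend on such genes. They were not taken without them, and these lists do not show a wider spread of the expressed genes. Over all genes tested it was 2.69 and 2.52. With 1 library on each side these spreads have no replicate check.

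**Figure D2:**
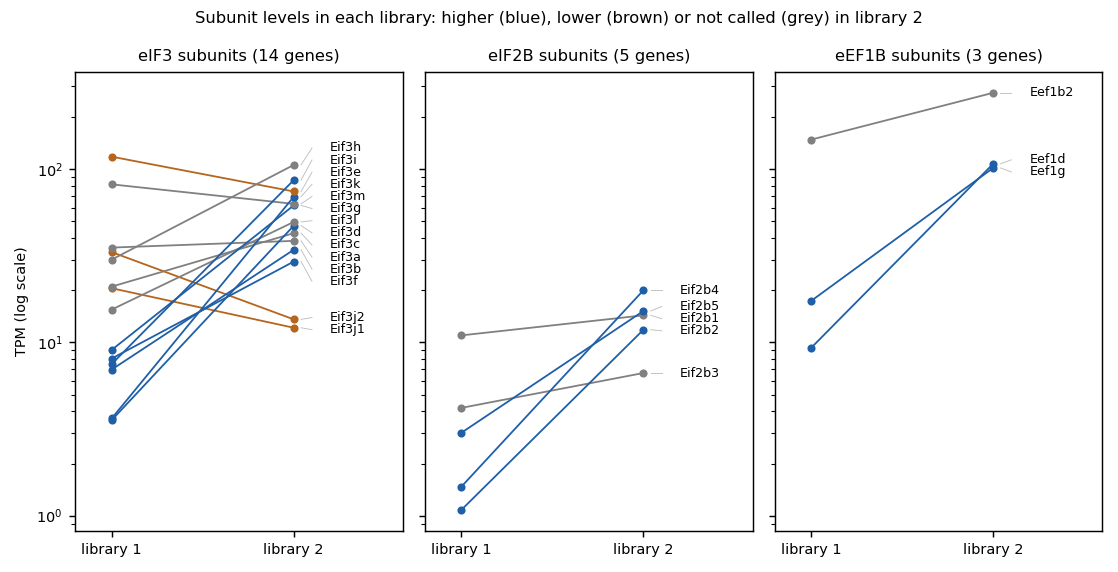
TPM on a log axis of the subunit genes of eIF3, eIF2B and eEF1B, with a line joining library 1 to library 2 for each gene. Blue lines are genes called higher in library 2, brown lines genes called lower and grey lines genes not called. The 12 genes of eIF3 other than Eif3j1 and Eif3j2 span 3.56 to 118.0 TPM on the left and 29.3 to 105.8 TPM on the right.

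The j subunit has 2 genes here. Their coding sequences were identical over all 261 residues aligned, while their main transcripts differed in length (5413 and 2379 bases). Eif3j1 was at 20.6 TPM in library 1 and 12.2 TPM in library 2, and Eif3j2 was at 33.2 and 13.6 TPM. The deposited posterior SD of the count was 39.0 counts for each gene in library 1 and 25.7 counts for each in library 2. That was 1.59% and 2.35% of the counts of Eif3j1 and Eif3j2 in library 1, and 2.66% and 5.61% in library 2. By contrast 47 of the 65 genes had a posterior SD of 0 in both libraries, and 7 had one above 1 count in at least 1 library. Both j genes were called lower, with log2 folds of -1.66 (-1.77 to -1.56) and -2.18 (-2.33 to -2.03). These counting intervals leave out the posterior SD.

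Of the 13 genes for eIF4F and cap binding, 3 were higher, 3 were lower and 6 were not called, with a median log2 fold of 0.09. With total-count scaling none of them was lower and 4 were higher. The ratios between paralogs of eIF4A and of eIF4G differed between the libraries, and this difference of ratios was not tested. Eif4a2 was at 352.6 TPM in library 1 and 245.9 TPM in library 2 and was called lower (log2 fold -1.42, -1.47 to -1.38). Eif4a1 was at 130.2 and 222.0 TPM and was not called (log2 fold 0.23, 0.17 to 0.29). Eif4a2 thus exceeded Eif4a1 by 2.71 times in library 1 and by 1.11 times in library 2. Eif4a1 shares reads with the pseudogene Eif4a-ps4, which was assigned 47.0 and 35.2 counts, small against its own 3610 and 5306. The related helicase Eif4a3, a core part of the exon junction complex, went from 13.6 to 32.9 TPM and was called higher (log2 fold 1.64, 1.38 to 1.92).

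Eif4g2, the eIF4G relative that lacks the eIF4E-binding site, was at 333.1 TPM in library 1 and 160.8 TPM in library 2 (log2 fold -1.19, -1.23 to -1.16). Eif4g1, the main scaffold, was at 31.3 and 124.5 TPM (log2 fold 1.18, 1.12 to 1.24). The ratio of Eif4g2 to Eif4g1 in TPM was 10.7 in library 1 and 1.29 in library 2. The effective length assigned to Eif4g2 was 2352 bases in library 1 and 3942 bases in library 2, and that of Eif4g1 was 3846 and 4045 bases. Part of the change in this TPM ratio therefore comes from the assigned lengths. Eif4g3 was at 5.33 and 9.34 TPM and was not called.

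The cap-binding protein gene Eif4e was at 27.1 TPM in library 1 and 20.5 TPM in library 2 (log2 fold -1.29, -1.41 to -1.17). Eif4e2, which binds caps without binding eIF4G strongly, was at 7.49 and 30.9 TPM (log2 fold 0.68, not called), so that the higher of these genes was Eif4e in library 1 and Eif4e2 in library 2. Eif4e3 was at 5.53 and 6.12 TPM (log2 fold -0.74, not called). Eif4e1b, known from oocytes, had 0 counts in both libraries, which allows up to 0.167 TPM in library 1. The helicase partners Eif4b (49.8 and 89.1 TPM, log2 fold -0.05, not called) and Eif4h (17.4 and 73.0 TPM, log2 fold 1.18, called higher) completed the list with Eif4enif1, the eIF4E transporter, at 11.1 and 8.95 TPM.

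All 3 4E-binding proteins were expressed. Eif4ebp2 was the highest in library 2, at 11.8 TPM in library 1 and 67.3 TPM in library 2 (log2 fold 1.62, 1.47 to 1.78). Eif4ebp1 was at 1.70 and 31.04 TPM (log2 fold 3.27, 2.76 to 3.87). Eif4ebp3 was at 13.0 and 38.4 TPM and was not called (log2 fold 0.66, 0.39 to 0.94). In library 1 Eif4ebp2 and Eif4ebp3 were near one another and Eif4ebp1 was far below, while in library 2 all 3 lay between 31.04 and 67.3 TPM.

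Eif5a, whose hypusine-bearing product helps the ribosome past difficult peptide bonds, was at 59.7 TPM in library 1 and 324.9 TPM in library 2 (log2 fold 1.43, 1.35 to 1.52). Its paralog Eif5a2 was at 0.17 and 0.07 TPM, from 19 and 5 counts. The call for Eif5a2 (log2 fold -2.13, -4.03 to -0.78, adjusted p = 9.60e-04 in the exact binomial test) rests on these few counts. Eif6, which keeps the large ribosomal subunit from joining too early, was at 6.12 and 32.5 TPM. Its counts went from 53 to 657 (log2 fold 3.30, 2.90 to 3.74), while its effective length was 380 bases in library 1 and 1311 bases in library 2. Eif5b, the GTPase of subunit joining, was at 15.9 and 17.6 TPM although its counts fell from 2421 to 1284 (log2 fold -1.24, -1.34 to -1.14), so its direction depends on the scale.

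As over all genes, the library difference of the factors followed the base composition of their coding sequences, which was taken from GENCODE M21 and not from the measurements. A coding sequence that starts with ATG was found for 64 of the 65 genes, the exception being Eif4g2, and for 61 of the 62 tested. Across those 61 genes the Spearman rho of the log2 fold with the GC content of the coding sequence was 0.848, and across 11974 genes tested it was 0.766. These are descriptions across genes, which share the libraries and are not independent replicates. Of 14 factor genes with under 45% GC, 13 were lower (92.9%, against 85.6% of the 1601 genes of that range) and none was higher. Their median log2 fold was -1.41, against -1.45. Of 15 with 55% or more, 13 were higher (86.7%, against 70.3% of 4251 genes) and none was lower. Their median was 1.88, against 2.02. The factors were thus split by GC much as other genes were. Factor genes called higher had 50.1 to 62.1% GC and those called lower 39.8 to 49.3%. Over all genes tested the same ranges overlapped widely, at 41.6 to 75.3% for those called higher and 31.9 to 75.4% for those called lower, with medians of 57.3% and 45%.

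**Figure D3:**
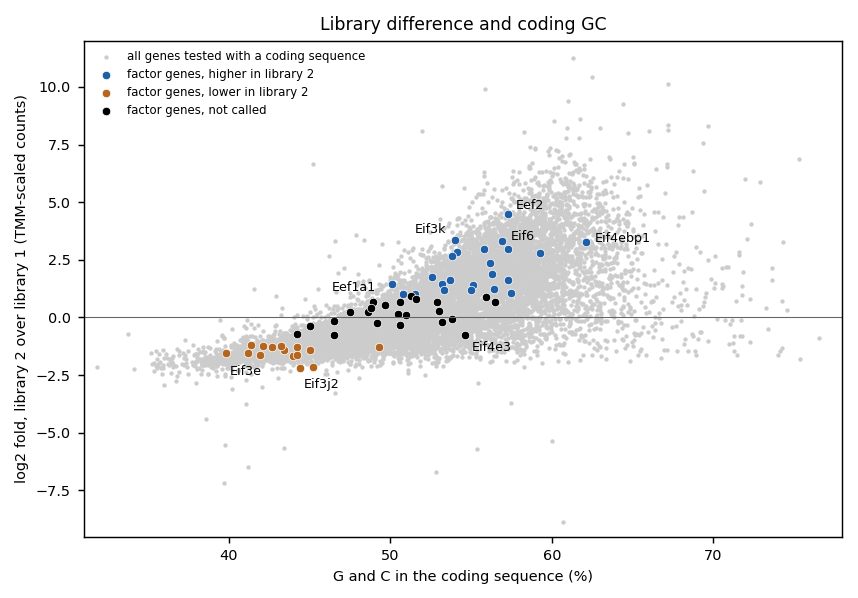
The log2 fold of library 2 over library 1 in TMM-scaled counts against the GC content of the coding sequence in percent, for all 11974 genes tested with a coding sequence (grey) and for 61 factor genes, coloured by call. Factor genes lie within the band of the other genes, and among the factor genes Eef2 at 4.49 is the highest and Eif3j2 at -2.18 the lowest.

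Within paralog sets the order by GC and by fold did not always match. Eif4a1 had 57.5% G or C at the third codon positions and Eif4a2 44.3%, and Eif4a2 was the one called lower. Eif5a had 56.1% and Eif5a2 44.2%, again with the lower fold in the latter. Eif4g1, called higher, had 51.7%, below Eif4g3 with 56.5% and no call. Eif4ebp3, not called, had 67.6%, slightly above Eif4ebp2 with 66.1% and a call. By GC of the whole coding sequence these 2 pairs did follow the fold. Eif4g1 had 53.3% and Eif4g3 53.0%, and Eif4ebp2 had 57.3% and Eif4ebp3 56.5%. On that measure Eif4e3 (54.6%, log2 fold -0.74) lay above Eif4e2 (50.6%, log2 fold 0.68), against the order of their folds. After a smooth curve of fold on transcript GC content was subtracted, 4 of 56 factor genes with a GC value were called (7.14%), against 14.4% of 12070 genes, and the median log2 fold of the factors was 0.07. The 4 were Eef2, Eif3k, Eif3i and Eif3d, all higher in library 2. The curve was fitted on these same libraries, and its GC content was a mean over transcripts weighted by their TPM in them. With an unweighted mean 9 of 58 factor genes were called (15.5%, against 20.2% of all genes). What produced the dependence on GC was not tested.

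Isoform shares (the percent of a gene's TPM assigned to a transcript) also differed. Of the 65 genes, 26 had 1 annotated transcript. Of 36 genes with at least 2 transcripts and at least 1 TPM in both libraries, 20 had the same leading transcript in both. Over all factors the TPM of transcripts annotated as protein coding was 79.5% in library 1 and 89.9% in library 2. Processed transcripts, which have no annotated reading frame, held 14.1% and 6.19%, retained-intron transcripts 3.19% and 1.41%, and transcripts marked for nonsense-mediated decay 3.19% and 2.49%.

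The largest change was in Eif6, where the processed transcript Eif6-205 (402 bases) held 75.1% in library 1 and 0% in library 2, and the coding Eif6-201 (1500 bases) held 8.63% and 98.3%. Eif6 was at 6.12 TPM in library 1. Among the 19 genes with at least 10 TPM in both libraries, the 8 largest changes were those that follow. In Eif3m the short form Eif3m-202 (817 bases) held 68.3% in library 1 and 0% in library 2, and Eif3m-201 (1283 bases) held 27.8% and 99.8%. In Eif4g1 the form Eif4g1-217 held 70.9% in library 1 and 0% in library 2, where Eif4g1-202 held 42.4%. In Eif4a3 the 466-base processed transcript Eif4a3-203 held 66.7% in library 1, and the full coding form Eif4a3-201 held 6.07% in library 1 and 76.6% in library 2. These shares are estimates from short reads.

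In Eif1 the processed transcript Eif1-202 of 383 bases held 59.1% in library 1 and 25.3% in library 2, and the coding form Eif1-201 of 1322 bases held 17.3% and 69.3%. The effective length of Eif1 given above moved with these shares. Eif2a-207, marked for nonsense-mediated decay, held 60.2% and 29.5%, and the coding Eif2a-201 held 17.6% and 64.5%. Eif2s2-205 held 64.3% in library 1 and 0% in library 2, Eif2b1-204 (619 bases) held 64.1% and 23.5%, and Eif5a-209 held 61.6% and 1.92%. Effective length differed by more than 1.5 times between libraries in 7 genes, namely Eif6, Eif4a3, Eif2b1, Eif1, Eif4enif1, Eif4g2 and Eif2ak4, and it was longer in library 2 in each. In contrast Eef1a1-201 held 98.2% and 89.6% of Eef1a1, Eif2ak1-201 held 99.3% and 99.4%, and Eif5-202 held 77.6% and 77.1%. These genes had the same leading transcript in both libraries.

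**Figure D4:**
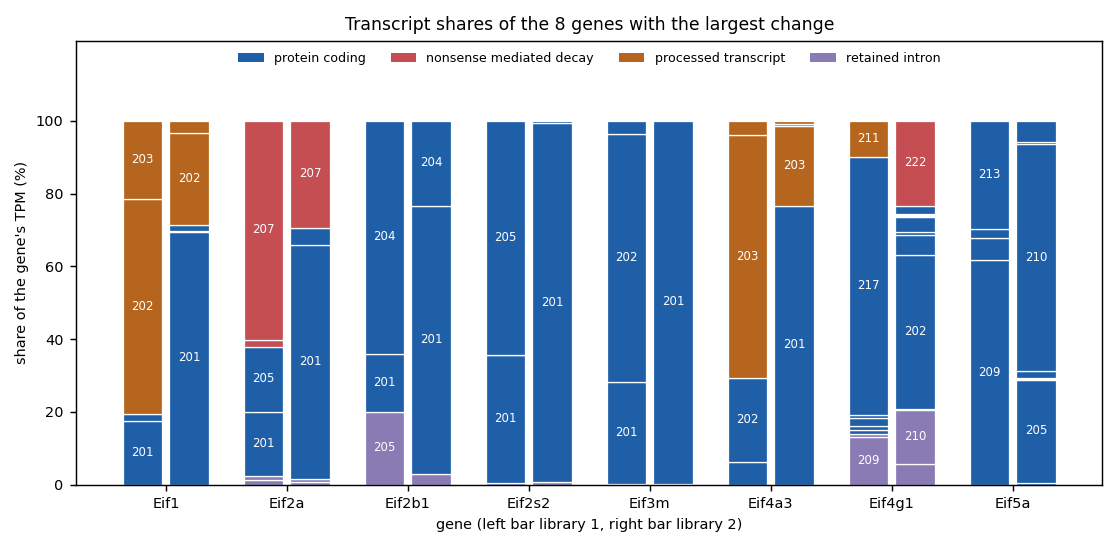
Share of each gene's TPM, in percent, held by its transcripts in library 1 (left bar of a pair) and library 2 (right bar) for the 8 genes with the largest change among those at 10 TPM or more in both libraries, coloured by annotated transcript type. Numbers inside the bars are the transcript suffixes of the annotation. In Eif1 and Eif4a3 the brown segments of processed transcripts are larger in library 1, and in Eif3m and Eif2s2 a single coding form fills the right bar.

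The genes that work beside these factors differed between the libraries too. Of 53 genes in 6 lists, 52 were tested, 22 were higher and 12 were lower, and the list counts below stand beside 32.7% higher and 23.8% lower over all genes. The lists also differed in coding GC, with medians from 45.2% (termination and recycling) to 57.0% (integrated stress response outputs). Of 7 genes for termination and recycling, 4 were lower and 1 was higher. Gspt1 and Etf1, the release factors eRF3 and eRF1, were at 89.7 and 46.9 TPM and at 36.9 and 29.6 TPM, and both were called lower. Of 8 genes for poly(A) binding and its partners, 4 were lower and 2 were higher. Pabpc1, which links the poly(A) tail to eIF4G, was at 101.6 and 120.9 TPM and was not called.

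Of 11 genes that pass mTOR and MAP kinase signals to eIF4E, 7 were higher and 2 were lower. Rheb, the activator of mTOR, was at 70.0 and 32.1 TPM and was called lower, and Mknk2, a kinase of eIF4E, was at 1.22 and 30.97 TPM and was called higher. Of the 8 tested outputs of the integrated stress response, 6 were higher and none was lower, in a list whose median coding GC of 57.0% lies in the range where 70.3% of all genes were higher. Atf5 was at 18.4 and 189.6 TPM (called higher), and Atf4, whose translation rises when eIF2 is phosphorylated, was at 28.6 and 79.0 TPM (log2 fold 0.58, not called). Of 9 enzymes that modify eIF5A (hypusine) and eEF2 (diphthamide), 4 were higher and 1 was lower. Of 9 mitochondrial translation factors, 2 were higher and 1 was lower, with Tufm, the mitochondrial elongation factor Tu, at 3.85 and 79.9 TPM. For the 83 cytosolic ribosomal protein genes tested, 53 were higher, none was lower and the median log2 fold was 1.76. The elongation factor genes had a median of 1.74 over 7 tested, with folds from -1.27 (Eef1e1) to 4.49 (Eef2). Of these 7, 4 were higher, 1 was lower and 2 (Eef1a1 and Eef1b2) were not called. The difference between elongation and initiation factors was not tested.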

How the data were processed

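PolyA RNA-seq libraries of 1 liver were analysed (n = 2). The authors deposited a gene and a transcript table for each, quantified from transcriptome alignments (assembly mm10, annotation M4, per the files' README). The names of the quantification tool and aligner were not found in these sources. The deposited expected counts are unnormalised estimates, and the deposited TPM values are per length and relative to all annotated genes. The deposited percent values are a transcript's share of its gene's TPM. The deposited posterior SD of a count is given in counts.

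Symbols, coordinates, transcript types and coding sequences came from GENCODE M21 on GRCm38. After rounding to whole numbers, genes under 20 counts over both libraries were dropped, and TMM factors came from edgeR 4.0.16 in R 4.3.3. The quasi-likelihood test has no residual degrees of freedom here, so the main test was a two-sided exact binomial one per gene with Benjamini-Hochberg adjustment. Folds carry a prior count of 0.5, and their intervals are exact binomial at 95% and cover counting error only, as do the floors of 3 counts. Log levels used a pseudocount of 0.1 TPM. The GC curve was a loess with span 0.3. Paralogs were aligned with Biopython 1.88. The test was checked on simulated counts with 200 genes changed and no dependence on GC. That check gives no error rate for libraries that differ as these do. Alternatives included DESeq2 1.42.0 size factors.

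The members, lists and naming rule were chosen with earlier results of these data known. Genes were named by high TPM, role, paralogy, size of the difference and change of isoform share. Eif1ad, Eif4enif1, Eif2d, the isoforms of Eif6, the window of Eif4h, Eif2ak4 among the lengths, and the examples with the same leading transcript in both libraries were chosen after their values were seen. The listed symbols Eef1akmt4, Eef1aknmt, Eef1aknmt1 and Mtrfr had no match.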

Additional observations from a re-analysis of the deposited data

How the results depend on the processing

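The call counts of 39, 23 higher and 16 lower were within 1.5 times under DESeq2 size factors, other count minimums, a prior count of 2 and removal of mitochondrial genes and copies. Total-count scaling left 5 lower. Without a fold minimum 36 were higher (58.06% of those tested, against 43.18% of all genes). After the GC curve 4 were called, 4 higher (7.143%, against 7.001% of all genes) and 0 lower (against 7.357% of all genes). With unweighted transcript GC, an alternative chosen after the data were seen, 9 were called. Of these, 7 were higher (12.07% of those tested, against 9.796% of all genes) and 2 were lower (3.448%, against 10.42%). The curve removes the part of a fold that follows GC, so fewer calls follow from its construction. Under the curve these called folds changed sign: Eif4g2 (0.28), Eif2s1 (0.24), Eef2kmt (-0.78), Eif4a2 (0.12), Eif2a (0.04), Eif4h (-0.49), Eif4g1 (-0.44), Eif3b (-0.86), Eif1a (0.07), Eif3g (-0.35) and Eif5a (-0.23), none of them called there. With unweighted GC they did so for Eif4g2 (0), Eif4ebp2 (-0.82), Eif2s1 (0.28), Eif3e (0), Eef2kmt (-0.67), Eif2a (0.13), Eif4h (-0.36), Eif4g1 (-0.82), Eif3b (-0.7), Eif1a (0.1) and Eif3g (-0.19). The TPM ratio gave 0.14 for Eif5b. The median fold ranged from 0.07 to 1.15 over the alternatives run.

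The factors held a mean of 0.598% of all TPM, or 1.07% when only nuclear protein-coding genes are summed. From 1 library at a time the share of all TPM was 0.395% to 0.801%, and 58 genes at 1 TPM or more in both became 58 to 61. Of the 19 genes at 10 TPM or more, 10 had the same leading transcript, a smaller count because fewer genes were compared. Depth limits the low genes, and Eef1a2, Eif4e1b and Eef1akmt3 had 1 count or fewer. No paired analysis was possible because both libraries form 1 group. With 1 animal, no spread between animals can be given.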
